A study of Mus musculus with 19 samples.

Results

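The 10 genes described here are the immunoglobulin constant and plasma cell genes Ighm, Ighd, Ighg1, Ighg2b, Ighg2c, Ighg3, Igha, Igkc, Jchain and Mzb1. They were taken by gene symbol from a deposited table of 36682 gene entries, and all 10 were among the 22778 genes with enough counts to be tested. The series measured RNA in dorsal root ganglia, which hold the cell bodies of sensory neurons, of 19 male mice. All mice were homozygous for the macrophage Fas-Induced apoptosis (MaFIA) transgene, so vehicle-treated mice carried it too, and no group without it was included. As background, the Csf1r promoter drives this transgene, and AP20187 dimerizes its product and sets off cell death in macrophages and other cells that use that promoter. There were 5 mice with destabilization of the medial meniscus (DMM, a surgical model of knee osteoarthritis) and AP20187, 5 with DMM and vehicle, 4 naive mice with AP20187 and 5 naive mice with vehicle. AP20187 or vehicle was injected into the peritoneum daily on 5 days, 8 weeks after surgery in the DMM mice, and the naive mice were of matched age. The ganglia of levels L3-L5 on the operated side were pooled for each library. Mice are named by group and by the number in the labels. The labels do not say in words that each number is a separate animal, and p-values measure the spread between these libraries.

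An antibody is built from heavy and light chains, and the constant gene that a B cell uses sets the class of its heavy chain. Immature and mature B cells carry IgM from Ighm on their surface, mature B cells also carry IgD from Ighd, and class switching replaces these by an IgG (Ighg1, Ighg2b, Ighg2c, Ighg3) or IgA (Igha) constant gene. Igkc encodes the constant part of the kappa light chain, which most mouse B lineage cells use. Plasma cells secrete antibody in bulk; Jchain encodes the joining chain that links IgM and IgA units into polymers, and Mzb1 encodes an endoplasmic reticulum protein that helps antibody assembly. Plasma cells can live for long periods in bone marrow and at mucosal sites. Ighg2c takes the place of Ighg2a in C57BL/6 mice.

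For 6 of the 7 heavy chain genes the 3′ ends of the coding sequences of the secreted forms are shown because they separate the classes that bind the joining chain from the IgG classes that do not. Each is the last 60 coding bases with the stop codon, from GENCODE M21 transcripts, 5′ to 3′, and capitals mark a cysteine codon that is the last codon but one before the stop and through which the secreted tail is linked to the joining chain.
Ighm: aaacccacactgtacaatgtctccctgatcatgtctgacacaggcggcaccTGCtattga
Igha: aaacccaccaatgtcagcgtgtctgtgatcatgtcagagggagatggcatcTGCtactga
Ighg1: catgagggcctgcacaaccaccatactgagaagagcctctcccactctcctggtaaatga
Ighg2b: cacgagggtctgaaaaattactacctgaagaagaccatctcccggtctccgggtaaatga
Ighg2c: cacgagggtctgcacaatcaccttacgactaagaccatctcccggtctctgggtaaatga
Ighg3: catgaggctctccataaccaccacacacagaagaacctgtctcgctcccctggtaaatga
At that place the 4 IgG forms read GGT, so only the first pair of sequences carries the cysteine codon there. The IgG genes also resemble each other: of all 50-base windows in their transcripts, 0.393% of Ighg1, 1.58% of Ighg3, 4.15% of Ighg2b and 5.49% of Ighg2c occurred in another gene, against 0 for Ighm, Ighd, Igha, Igkc and Jchain. No window of 100 bases was shared by any of these 9 genes. Only exact matches were counted, and the read length is not given in the sources used here. Counts of single IgG genes are therefore uncertain, to an extent that these shares do not bound.

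In the deposited table, which is on GRCm39 per the submitters' processing notes, the 7 heavy chain genes lay in a row on chromosome 12 on the minus strand. From the 5′ end of the locus they were Ighm (113382178 to 113386350), Ighd (113370224 to 113379944), Ighg3 (113319844 to 113324852), Ighg1 (113288860 to 113294143), Ighg2b (113266585 to 113271553), Ighg2c (113248945 to 113252552) and Igha (113218450 to 113223856). Igkc was at 70703419 to 70703950 on chromosome 6, on the plus strand. Jchain was at 88667668 to 88675750 on chromosome 5 and Mzb1 at 35780320 to 35782420 on chromosome 18, both on the minus strand.

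Library totals ran from 60984830 to 74691396 counts, which puts the level of 3 counts in 1 library between 0.0400 and 0.0519 CPM (counts per 1e6 counts, after TMM scaling). The tissue label was checked with 10 sensory neuron genes, and none was at 0 in every library of a group. Their summed level was 6193 to 10514 CPM in naive vehicle, 3918 to 9654 CPM in DMM vehicle, 1651 to 7434 CPM in naive AP20187 and 1411 to 4889 CPM in DMM AP20187. The summed level of 8 granule genes of marrow granulocyte precursors, such as Mpo, moved the other way. It was 557 to 1582 CPM in naive vehicle, 267 to 5018 CPM in DMM vehicle, 5564 to 16787 CPM in naive AP20187 and 11650 to 19812 CPM in DMM AP20187. All 8 rose with AP20187 in naive mice and 7 of the 8 in DMM mice, in edgeR's test at an adjusted p of 0.05, against 8.61% and 11.3% of all genes. In DMM mice 6 of the 10 sensory neuron genes and 5 of 7 tested red cell genes, such as those of haemoglobin, fell with AP20187, against 12.4% of all genes. In naive mice 0 of either list passed edgeR's test, where 2.57% of all genes fell. An unadjusted p under 0.05 was held by 2 and 1 of them and by 6550 of all 22778 genes, and DESeq2 called 1 and 0. Against DMM vehicle mice 32 to 34 alone 9 of the neuron and 0 of the red cell genes fell (0 of the latter with an unadjusted p under 0.05), against mice 63 and 64 alone 0 and 7 (2 of the neuron genes with an unadjusted p under 0.05), and with only the compared groups in the fit 4 and 0. Of all genes, 8450 passed against mice 32 to 34 alone and 1156 against mice 63 and 64 alone, in either direction. The same numbers apply to each list below that is set against these mice. The part of the neuron, granule and red cell lists in the results below was not tested. The DMM vehicle mice carry the numbers 32, 33, 34, 63 and 64, and those with DMM and AP20187 the numbers 58 to 62; the labels do not say what the numbers stand for. Several results below differ between the mice numbered 32 to 34 and those numbered 63 and 64, and fits against each set are given where they bear on a call.

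Per length of transcript, kappa and mu chains led in vehicle-treated naive tissue. In naive vehicle mice Ighm stood at 39.9 ± 12.8 FPKM (SD, n = 5), and Igkc at 24.6 ± 8.31 FPKM, with overlapping ranges. Below them came Ighg2c at 4.22 ± 0.603, Igha at 3.83 ± 2.12 and Ighd at 3.57 ± 1.29 FPKM, whose ranges overlapped each other but not those of the leading pair. Jchain followed at 1.60 ± 0.645 FPKM, and Ighg2b (0.493 ± 0.670), Mzb1 (0.400 ± 0.354), Ighg1 (0.332 ± 0.192) and Ighg3 (0.123 ± 0.181) overlapped at the bottom. In DMM AP20187 mice the order was another one: Igkc 149 ± 55.5, Ighm 82.5 ± 77.0, Igha 40.5 ± 13.3, Jchain 12.1 ± 3.98, Ighg1 6.04 ± 3.82, Ighg3 4.29 ± 7.48, Ighg2c 2.47 ± 1.99, Ighg2b 2.05 ± 2.29, Mzb1 0.729 ± 0.390 and Ighd 0.724 ± 0.709 FPKM (SD, n = 5). Ighd thus stood near Igha in naive vehicle mice and was level with Mzb1 at the bottom in DMM AP20187 mice.

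**Figure D1:**
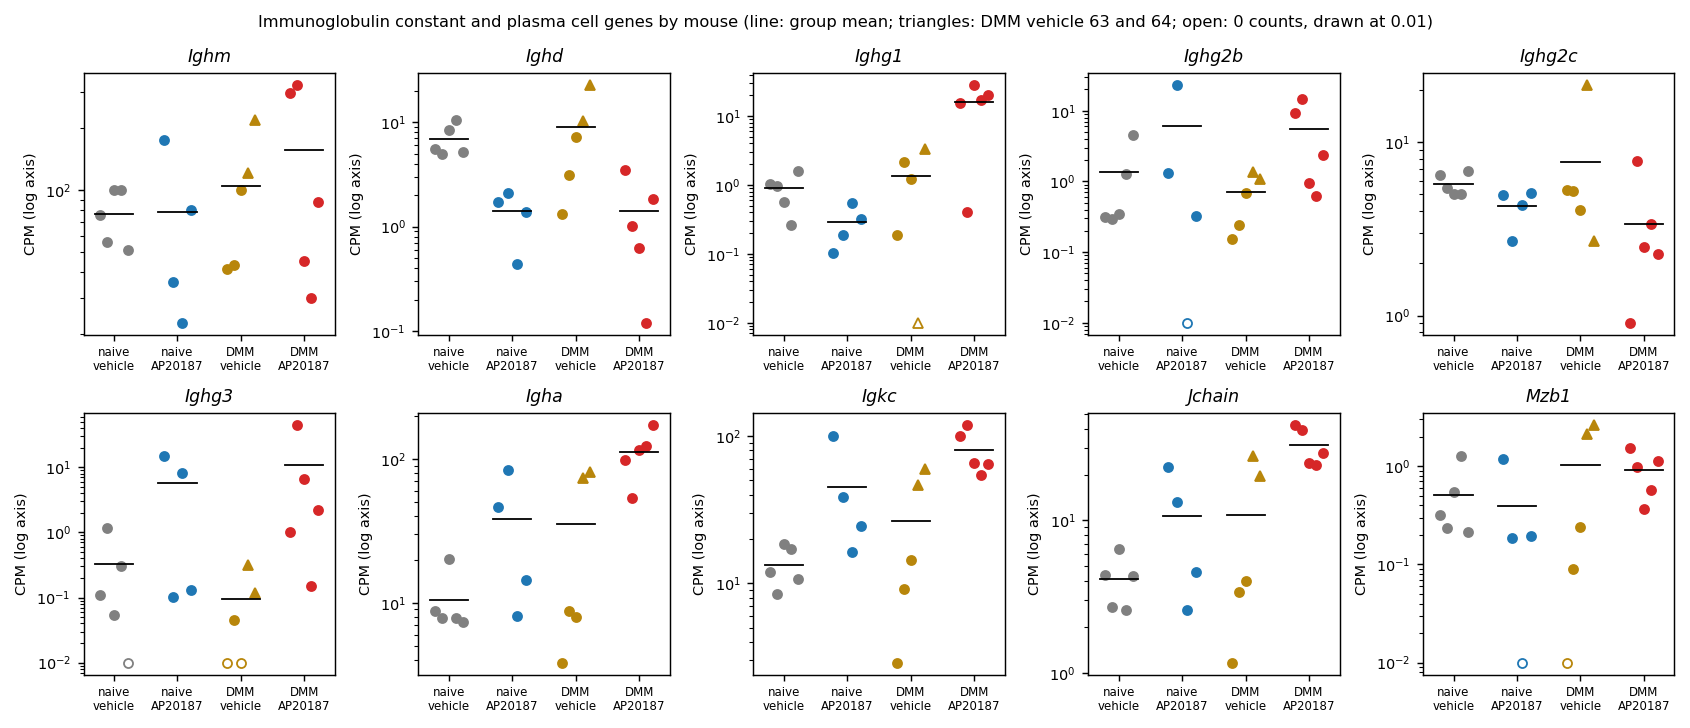
Level of each gene in every mouse (CPM, log axes), by group; bars are group means, triangles are DMM vehicle mice 63 and 64, and open symbols are libraries with 0 counts, drawn at 0.01. Ighd was lower in all 4 naive AP20187 mice than in any naive vehicle mouse, Igha, Igkc and Jchain were high in DMM vehicle mice 63 and 64, and Ighg1 was high in 4 of 5 DMM AP20187 mice.

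With AP20187, the IgD gene fell and 2 IgG genes rose in DMM mice, while the IgM gene passed no test. In edgeR's quasi-likelihood F test, 3 of the 10 genes passed the threshold of an adjusted p of 0.05 in DMM mice: Ighg1 and Ighg3 rose and Ighd fell. Of all tested genes, 23.8% passed in that comparison, so the share of these 10 genes was near the background; by direction, 11.3% of all genes were higher and 12.4% lower. Without DMM vehicle mouse 64, 6 of the 10 passed (Igha, Igkc and Ighg2c in addition), while the number of all genes that passed went from 5410 to 7677. Without DMM AP20187 mouse 58 it went to 3212. Against vehicle mice 63 and 64 alone 1156 genes and 1 of the 10 passed, and against mice 32 to 34 alone 8450 genes and 5 of the 10. With only the compared groups in the fit, Ighd (adjusted p = 0.0582) and Ighg1 (adjusted p = 0.0503) missed the threshold, and with limma on log2(FPKM + 1) Ighg3 did (adjusted p = 0.0807). The median log2 fold change of the 10 was 1.56, against -0.10 over all genes. In naive mice 0 of the 10 passed, against 11.2% of all genes (8.61% higher and 2.57% lower). Of the 10, 4 had an unadjusted p under 0.05, as did 6550 of the 22778 genes. DESeq2 called 3 of the 10 and 4367 genes there. The number of all genes that passed in naive mice, 2548, depended on single libraries: it was 1191 without AP20187 mouse 1, 994 without AP20187 mouse 3, and 1368, 1292 and 1566 without vehicle mice 1, 2 and 5. The median of the 10 was 0.71 there, against -0.07 over all genes. The interaction, which asks whether the AP20187 effect differs between DMM and naive mice, was passed by 0 of the 10 and by 0.114% of all genes. An unadjusted p under 0.05 was held by 1 of the 10 and by 1748 of the 22778 genes. DESeq2 called 1 of the 10 and 237 genes. In whole ganglia, fewer cells of a type and less RNA per cell cannot be told apart.

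Ighd counts ranged from 8 to 1542 per library. In DMM AP20187 mice 58 to 62 its level was 3.49, 1.01, 0.626, 0.120 and 1.83 CPM, and in DMM vehicle mice 32, 33, 34, 63 and 64 it was 1.33, 3.09, 7.28, 10.4 and 22.7 CPM. The groups overlapped through vehicle mice 32 and 33 and AP20187 mice 58 and 62. The log2 fold change was -2.66 (SE 0.73, adjusted p = 0.0159 in edgeR's quasi-likelihood F test). It was -1.46 (adjusted p = 0.117) against vehicle mice 32 to 34 alone and -3.54 (adjusted p = 0.0159) against mice 63 and 64 alone, so the call rests on the latter. In naive AP20187 mice 1, 3, 4 and 5 Ighd stood at 1.73, 2.09, 0.437 and 1.38 CPM, and in naive vehicle mice 1 to 5 at 5.57, 4.94, 8.47, 10.5 and 5.23 CPM. These groups did not overlap. The log2 fold change of -2.30 (SE 0.79) missed the threshold in the fit of all 19 libraries (adjusted p = 0.0659). It passed in DESeq2 (adjusted p = 0.0135), in limma on log2(FPKM + 1) (adjusted p = 0.0319), with only the compared groups in the fit (adjusted p = 0.00936) and with the replicate block (adjusted p = 0.0362).

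Ighm, the gene next to Ighd, did not pass in either comparison. Its level was 296, 323, 45.2, 30.1 and 87.8 CPM in DMM AP20187 mice 58 to 62, and 41.6, 43.5, 100, 121 and 219 CPM in DMM vehicle mice 32, 33, 34, 63 and 64. Both the highest and the lowest of these 10 values were in AP20187 mice. The log2 fold change was 0.57 (SE 0.64, adjusted p = 0.563). Naive mice held 175, 35.9, 22.8 and 79.9 CPM with AP20187 (mice 1, 3, 4 and 5) and 75.7, 55.8, 100, 101 and 51.1 CPM with vehicle (mice 1 to 5), for which the log2 fold change was 0.03 (SE 0.68, adjusted p = 0.980). The AP20187 mice again lay on both sides of the vehicle mice.

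The ratio of Ighd to Ighm sets the gene of mature B cells against one that immature B cells and plasma cells also use, and it separated AP20187 from vehicle in DMM and in naive mice. On a log2 scale of counts it was -6.41, -8.31, -6.16, -7.89 and -5.57 in DMM AP20187 mice 58 to 62, and -4.96, -3.81, -3.78, -3.55 and -3.27 in DMM vehicle mice 32, 33, 34, 63 and 64. All 5 AP20187 mice were below all 5 vehicle mice, also below mice 32 to 34. The means differed by -2.99 (-6.87 ± 1.17 against -3.88 ± 0.65, SD, n = 5 each; two-sided exact permutation p = 0.00794, the smallest this design allows; adjusted p = 0.0317 over 8 tests of 2 ratios). In naive mice it was -6.65, -4.09, -5.68 and -5.85 with AP20187 (mice 1, 3, 4 and 5) and -3.76, -3.49, -3.56, -3.27 and -3.29 with vehicle (mice 1 to 5). The naive groups did not overlap either, with AP20187 mouse 3 nearest to the vehicle mice. The means differed by -2.09 (-5.57 ± 1.07, n = 4, against -3.47 ± 0.21, n = 5; exact permutation p = 0.00794, adjusted p = 0.0317). Leaving out 1 naive mouse at a time gave differences from -2.59 to -1.73, with an adjusted p from 0.0476 to 0.0762 that missed the threshold in 8 of 9 cases, since fewer mice also raise the smallest p that the exact permutation test allows. DMM and naive mice differed by -0.40 with vehicle (exact permutation p = 0.175) and by -1.30 with AP20187 (exact permutation p = 0.167), with overlap in both. With vehicle the difference was -0.71 for DMM mice 32 to 34 alone (exact permutation p = 0.0179, adjusted p = 0.0357) and 0.064 for mice 63 and 64 alone (exact permutation p = 0.810).

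**Figure D2:**
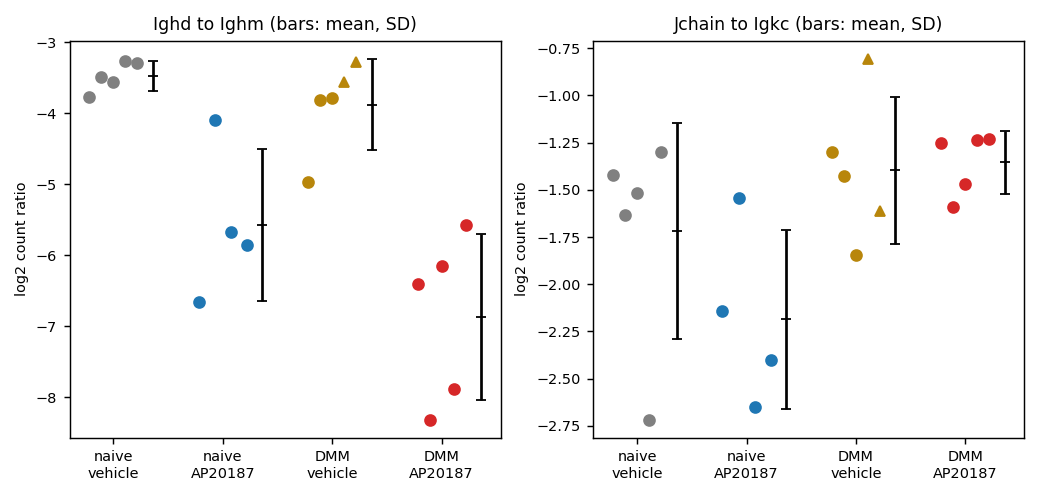
Log2 ratio of counts of Ighd to Ighm (left) and of Jchain to Igkc (right) in every mouse by group; vertical bars are the group mean and SD, and triangles are DMM vehicle mice 63 and 64. The Ighd to Ighm ratio was lower in every AP20187 mouse than in any vehicle mouse of the same surgery state, and the Jchain to Igkc ratio overlapped in these comparisons.

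Each IgG gene was high in single mice, and Ighg1 was high in most DMM AP20187 mice. Its level was 15.3, 0.409, 28.1, 17.2 and 19.9 CPM in DMM AP20187 mice 58 to 62, and 0.185, 2.12, 1.21, 0 and 3.28 CPM in DMM vehicle mice 32, 33, 34, 63 and 64. In 4 of 5 AP20187 mice it was above every vehicle mouse, and in mouse 59 it was within their range. The log2 fold change was 3.57 (SE 0.99, adjusted p = 0.0161), against vehicle mice 32 to 34 alone it was 3.78 (adjusted p = 0.00867), and against mice 63 and 64 alone 3.25 (adjusted p = 0.214). In naive mice Ighg1 was low throughout, at 0.104, 0.186, 0.538 and 0.324 CPM with AP20187 (mice 1, 3, 4 and 5) and 1.02, 0.980, 0.560, 0.258 and 1.62 CPM with vehicle (mice 1 to 5). The log2 fold change there was -1.62 (SE 1.06, adjusted p = 0.314). Its interaction was 5.19 (SE 1.45, adjusted p = 0.240), and DESeq2 called it (adjusted p = 0.0127).

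Ighg3 was low in vehicle mice, with 0 to 21 counts in DMM vehicle and 0 to 75 in naive vehicle libraries, and high in single AP20187 mice. It stood at 1.00, 44.5, 6.70, 0.150 and 2.19 CPM in DMM AP20187 mice 58 to 62, and at 0, 0.0448, 0, 0.317 and 0.118 CPM in DMM vehicle mice 32, 33, 34, 63 and 64. Mouse 59, low in Ighg1, held by far the most Ighg3, and mouse 61 lay within the vehicle range. The fitted log2 fold change was 6.80 (SE 1.78, adjusted p = 0.0122); with 3 of 5 vehicle libraries at or under 3 counts, its size depends on the prior count. It was 4.68 without AP20187 mouse 59, 9.32 (adjusted p = 0.0132) against vehicle mice 32 to 34 alone and 5.73 (adjusted p = 0.222) against mice 63 and 64 alone. Naive mice held 15.0, 0.101, 8.05 and 0.130 CPM with AP20187 (mice 1, 3, 4 and 5) and 0.110, 1.17, 0.0533, 0.307 and 0 CPM with vehicle (mice 1 to 5), for which the log2 fold change was 4.16 (SE 1.58, adjusted p = 0.0935). Naive AP20187 mice 1 and 4 were above all vehicle mice and mice 3 and 5 within their range.

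Ighg2b and Ighg2c did not pass in the fit of all 19 libraries. In DMM mice Ighg2b passed with only the compared groups in the fit (adjusted p = 0.0416), and Ighg2c without DMM AP20187 mouse 59 (adjusted p = 0.0245) or without DMM vehicle mouse 64 (adjusted p = 0.0407). Ighg2b ran from 0.629 to 14.5 CPM in DMM AP20187 and from 0.154 to 1.36 CPM in DMM vehicle mice (log2 fold change 2.97, SE 1.32, adjusted p = 0.107). In naive AP20187 mouse 3 it reached 23.0 CPM, the others holding 0 to 1.31 CPM, and naive vehicle mice held 0.295 to 4.58 CPM (log2 fold change 2.17, adjusted p = 0.278, and -1.40 without mouse 3). Ighg2c varied little in naive mice, at 5.00 to 6.83 CPM in naive vehicle and 2.69 to 5.09 CPM in naive AP20187 mice (log2 fold change -0.43, SE 0.55, adjusted p = 0.620). In DMM vehicle it ran from 2.69 to 21.3 CPM and in DMM AP20187 from 0.909 to 7.82 CPM (log2 fold change -1.19, SE 0.52, adjusted p = 0.101). Per length, Ighg2c made up the largest share of the summed IgG FPKM in all 10 vehicle mice, from 54.2% to 97.0%. Among AP20187 mice the largest was Ighg1 in DMM mice 58, 60, 61 and 62 (56.7% to 70.1%), Ighg3 in DMM mouse 59 (60.7%) and naive mouse 1 (58.4%), Ighg2b in naive mouse 3 (80.1%), and Ighg2c in naive mice 4 and 5 (49.0% and 93.1%). By counts Ighg1 was above Ighg2c in DMM vehicle mouse 64 (3.28 against 2.69 CPM). In naive AP20187 mouse 4 Ighg2c (2.86 FPKM) and Ighg3 (2.79 FPKM) were nearly level, and by counts Ighg3 was the higher (8.05 against 4.35 CPM). These shares are of FPKM within 1 library and carry the uncertainty from shared sequence given above. Within groups Ighg2c did not vary closely with Igkc or Jchain (values below).

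Igha, Igkc and Jchain had higher means with AP20187, with overlap, and none passed the main test. Igha, whose secreted tail carries the cysteine codon shown above, was 98.7, 53.6, 115, 123 and 173 CPM in DMM AP20187 mice 58 to 62, and 3.82, 8.80, 7.96, 74.4 and 81.2 CPM in DMM vehicle mice 32, 33, 34, 63 and 64. Vehicle mice 63 and 64 stood within the AP20187 range, and mice 32 to 34 below it. The log2 fold change was 1.68 (SE 0.74, adjusted p = 0.107). Naive Igha levels were 46.7, 84.7, 8.10 and 14.3 CPM with AP20187 (mice 1, 3, 4 and 5) and 8.78, 7.82, 20.2, 7.89 and 7.28 CPM with vehicle (mice 1 to 5). Naive AP20187 mice 1 and 3 were above all vehicle mice, and the log2 fold change was 1.89 (SE 0.78, adjusted p = 0.120).

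Igkc, the kappa light chain gene, was also higher in DMM vehicle mice 63 and 64 than in mice 32 to 34, but only mouse 64 stood within the AP20187 range. Its level was 100, 118, 65.5, 54.1 and 64.4 CPM in DMM AP20187 mice 58 to 62, and 2.90, 9.19, 14.4, 46.3 and 59.8 CPM in DMM vehicle mice 32, 33, 34, 63 and 64 (log2 fold change 1.60, SE 0.61, adjusted p = 0.0625). In naive mice it was 99.5, 38.8, 16.4 and 24.3 CPM with AP20187 (mice 1, 3, 4 and 5) and 11.9, 8.44, 18.5, 17.0 and 10.7 CPM with vehicle (mice 1 to 5), for which the log2 fold change was 1.75 (SE 0.64, adjusted p = 0.0819). In 4 of 5 DMM and 3 of 4 naive AP20187 mice it was above every vehicle mouse of the same surgery state. Jchain was 42.2, 39.3, 23.7, 23.0 and 27.5 CPM in DMM AP20187 mice 58 to 62, and 1.17, 3.42, 3.99, 26.5 and 19.6 CPM in DMM vehicle mice 32, 33, 34, 63 and 64 (log2 fold change 1.51, SE 0.67, adjusted p = 0.105). Naive Jchain levels were 22.5, 13.3, 2.60 and 4.59 CPM with AP20187 (mice 1, 3, 4 and 5) and 4.42, 2.72, 6.47, 2.58 and 4.36 CPM with vehicle (mice 1 to 5), for which the log2 fold change was 1.39 (SE 0.70, adjusted p = 0.194). For Jchain, DMM vehicle mouse 63 was within the AP20187 range, and mouse 64 and mice 32 to 34 were below it.

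For these 3 genes the outcome in DMM mice turned on which vehicle mice were used and on the method. Against mice 32 to 34 alone, Igha (log2 fold change 4.04, adjusted p = 0.000771), Igkc (3.19, adjusted p = 0.00124) and Jchain (3.44, adjusted p = 0.00109) rose in edgeR's test. Against mice 63 and 64 alone the log2 fold changes were 0.54, 0.63 and 0.48, and none passed. With all 5 vehicle mice DESeq2 called all 3 (adjusted p = 0.0434 for Igha, 0.0199 for Igkc and 0.0458 for Jchain), and limma on log2(FPKM + 1) called them too. In naive mice DESeq2 called Igha (adjusted p = 0.0496) and Igkc (adjusted p = 0.0310), and edgeR called Igkc with only the compared groups in the fit (adjusted p = 0.0316). The summed granule precursor level was 267, 455 and 1376 CPM in vehicle mice 32, 33 and 34, and 1789 and 5018 CPM in mice 63 and 64; its part in these differences was not tested. Ighd was also higher in mice 63 and 64 (10.4 and 22.7 CPM) than in mice 32 to 34 (1.33 to 7.28 CPM).

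Mzb1 was low everywhere and passed no test. It ran from 0.366 to 1.55 CPM in DMM AP20187 mice and stood at 0, 0.0895, 0.242, 2.13 and 2.62 CPM in DMM vehicle mice 32, 33, 34, 63 and 64. Mice 63 and 64 were thus above every AP20187 mouse (log2 fold change -0.14, SE 1.08, adjusted p = 0.941). The log2 fold change was -1.35 against mice 63 and 64 alone and 3.03 against mice 32 to 34 alone. In naive mice Mzb1 was 1.18, 0.186, 0 and 0.194 CPM with AP20187 (mice 1, 3, 4 and 5) and 0.214 to 1.26 CPM with vehicle (log2 fold change -0.40, SE 1.17, adjusted p = 0.842). The ratio of Jchain to Igkc did not separate AP20187 from vehicle. Its log2 value differed by 0.04 in DMM mice (-1.35 ± 0.17 against -1.40 ± 0.39, n = 5 each; exact permutation p = 0.810) and by -0.47 in naive mice (-2.19 ± 0.48, n = 4, against -1.72 ± 0.57, n = 5; exact permutation p = 0.230).

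**Figure D3:**
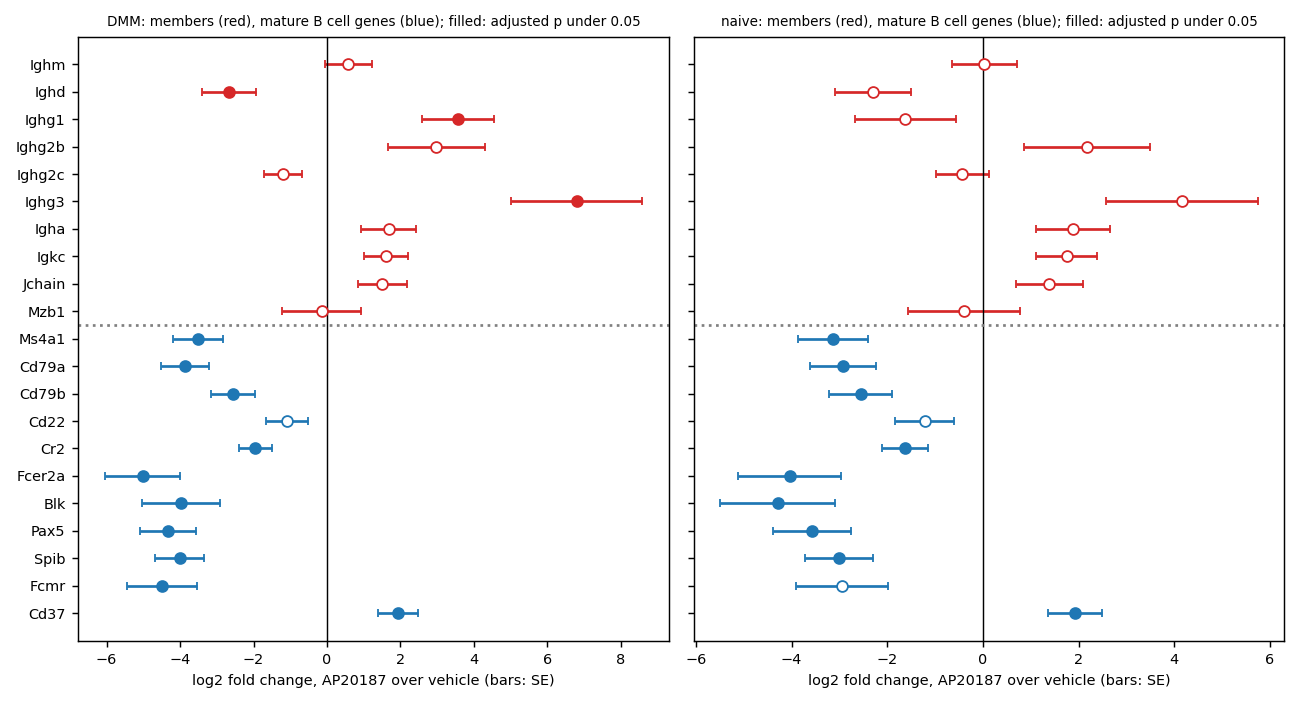
Log2 fold change of AP20187 over vehicle in DMM (left) and naive mice (right) for the 10 genes (red) and for genes of the mature B cell list (blue); bars are SE and filled symbols passed an adjusted p of 0.05. Ighd lay with the mature B cell genes on the negative side, and Igha, Igkc and Jchain on the positive side with open symbols.

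Surgery alone left these genes without a call. Between DMM and naive mice given vehicle, 0 of the 10 passed edgeR's test and 0% of all genes did. An unadjusted p under 0.05 was held by 2 of the 10 and by 377 of the 22778 genes, and 0 of the 10 passed in DESeq2. The log2 fold changes were 1.76 for Igha (SE 0.75), 0.99 for Igkc (SE 0.60) and 1.41 for Jchain (SE 0.67), each with an adjusted p of 1. With mice 63 and 64 as the only DMM vehicle mice they were 2.93, 2.02 and 2.49 and each passed (adjusted p = 0.0485), and with mice 32 to 34 they were -0.60, -0.59 and -0.52. Between DMM and naive mice given AP20187, 1 of the 10 passed, against 0.702% of all genes. That gene was Ighg1 (log2 fold change 5.80, SE 1.23, adjusted p = 0.0416), at 0.409 to 28.1 CPM in DMM and 0.104 to 0.538 CPM in naive mice. The call was lost in 7 of the 9 fits that left out 1 mouse of these groups (adjusted p from 0.0248 to 0.0960). Jchain was above every naive AP20187 mouse in all 5 DMM AP20187 mice, and did not pass (log2 fold change 1.53, SE 0.72, adjusted p = 0.292); Igha (1.55, SE 0.80) and Igkc (0.85, SE 0.64) did not pass either. The Jchain to Igkc ratio was higher in DMM than in naive AP20187 mice by 0.83 on the log2 scale (-1.35 ± 0.17, n = 5, against -2.19 ± 0.48, n = 4; exact permutation p = 0.0159, adjusted p = 0.0423). The groups overlapped at naive mouse 3, and leaving out 1 mouse at a time gave adjusted p from 0.0476 to 0.152, above the threshold in 8 of 9 cases.

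Igha took a larger share of the heavy chain counts in several AP20187 mice, and Ighd a smaller share in all of them. In naive vehicle mice Ighm made up 74.2% ± 5.02, Igha 9.99% ± 3.18, the IgG genes 9.05% ± 5.00 and Ighd 6.71% ± 0.981 of the heavy chain constant counts (SD, n = 5). In DMM vehicle mice the shares were 70.1% ± 11.7, 17.0% ± 11.3, 7.97% ± 4.22 and 4.96% ± 1.64 (n = 5). With AP20187, Ighm ranged from 17.2% to 72.6% in DMM and from 24.1% to 78.7% in naive mice, and Igha from 12.0% to 70.5% and from 14.1% to 57.0%. Igha was the larger of the pair in DMM mice 60, 61 and 62 and naive mouse 3. The Ighd share was 0.413% ± 0.307 in DMM AP20187 (n = 5) and 1.12% ± 0.331 in naive AP20187 mice (n = 4), and every AP20187 mouse was below every vehicle mouse. Counts weigh long transcripts more; by FPKM the mean Igha shares were 7.17%, 12.6%, 22.3% and 39.2% in naive vehicle, DMM vehicle, naive AP20187 and DMM AP20187 mice. Igkc made up 78.1% to 96.8% of the light chain constant counts over all mice.

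**Figure D4:**
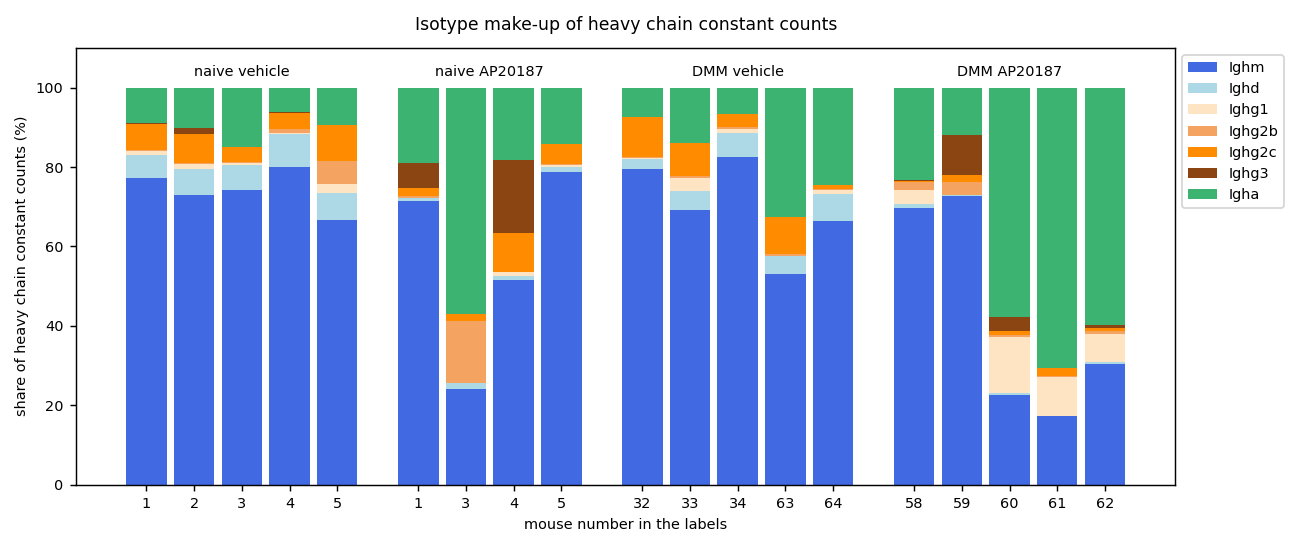
Share of each constant gene in the heavy chain constant counts (%), 1 stacked bar per mouse. Igha (green) passed Ighm (blue) in DMM AP20187 mice 60, 61 and 62 and naive AP20187 mouse 3, and the Ighd band (light blue) was 2.53% to 8.31% in vehicle and 0.0685% to 1.41% in AP20187 mice.

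Most genes of mature B cells fell with AP20187, as Ighd did in DMM mice. Of 12 tested genes, 10 fell with AP20187 in DMM mice and 9 in naive mice (of all genes, 12.4% and 2.57%), with median log2 fold changes of -3.92 and -2.98 against -0.10 and -0.07 over all genes. Cd79a, the signalling partner of the B cell receptor, was 0.541 to 1.12 CPM in DMM AP20187 and 1.28 to 28.4 CPM in DMM vehicle mice (log2 fold change -3.87, SE 0.65, adjusted p = 0.000798), and fell in naive mice too (-2.93, SE 0.68, adjusted p = 0.0113). Ms4a1, which encodes the surface protein CD20, fell by 3.50 in DMM and 3.13 in naive mice on the log2 scale, and Pax5, the transcription factor of B cell identity, by 4.33 and 3.57. Against vehicle mice 32 to 34 alone 9 of the 12 fell, and against mice 63 and 64 alone 10 (of all genes, 8450 and 1156 passed in either direction). The 1 gene of the list that rose in both was Cd37, named after its values were seen; it encodes a tetraspanin that other leukocytes also carry. It did not pass against DMM vehicle mice 63 and 64 alone, nor in naive mice without the filter on low counts. Of 9 tested genes of early B cells, 5 fell in DMM and 4 in naive mice (of all genes, 12.4% and 2.57%), among them Rag1, part of the recombinase that assembles antibody genes (log2 fold changes -6.77 and -7.00). The gene that rose in both was Erg, a transcription factor that blood vessels and stem cells also use; it did not pass against DMM vehicle mice 63 and 64 alone. Tnfrsf13c, the receptor for the B cell survival factor BAFF, is counted in the survival factor list below and fell by 3.36 in DMM and 2.19 in naive mice. Tnfrsf13b of the same list rose in both in edgeR's test (1.80, adjusted p = 0.00946, and 1.52, adjusted p = 0.0418). In naive mice 1 gene of that list rose and 0 fell without the filter on low counts. With limma on log2(FPKM + 1) 2 rose and 0 fell there.

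The plasma cell list moved in parts. Of 13 tested genes, 4 rose and 2 fell in DMM mice (of all genes, 11.3% and 12.4%), and 3 rose and 1 fell in naive mice (8.61% and 2.57%), with median log2 fold changes of 0.67 and -0.0043. Against DMM vehicle mice 32 to 34 alone 4 rose and 1 fell, and against mice 63 and 64 alone 1 rose and 2 fell (of all genes, 8450 and 1156 passed in either direction). Xbp1, a transcription factor of the secretory pathway used by plasma cells and by other secreting cells, was 186 to 333 CPM in DMM AP20187 and 67.7 to 130 CPM in DMM vehicle mice (log2 fold change 1.50, SE 0.20, adjusted p = 0.000120). It rose by 1.45 in naive mice (161 to 245 CPM against 68.8 to 83.1 CPM), and neither pair of groups overlapped. Creld2 (1.41 and 1.06) and Edem2 (0.67 and 0.69), which act on protein folding and disposal in the endoplasmic reticulum, rose in both, and Derl3 (2.07) in DMM mice. Sdc1, the plasma cell surface marker CD138, fell in DMM mice (-0.57, adjusted p = 0.0162), and Irf4, a transcription factor of plasma cells and activated B cells, fell in naive (-2.69, adjusted p = 0.0160) and DMM mice (-1.74, adjusted p = 0.0380, named after its values were seen). Tnfrsf17, the plasma cell receptor BCMA, was at 0 to 0.606 CPM in every library; it is named after its values were seen.

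Other genes around antibodies were counted likewise. Of 3 tested constant genes of lambda light chains, 0 passed in either AP20187 comparison, and 0 in DESeq2. An unadjusted p under 0.05 was held by 0 in DMM and 1 in naive mice. Of all 22778 genes, 8496 in DMM and 6550 in naive mice had such a p, and these numbers also apply to the lists that follow. Of 8 genes of class switching and germinal centres 2 rose in DMM mice, Bcl6 (0.45) and S1pr2 (0.88), against 11.3% of all genes; 0 of the 8 passed without the filter on low counts or against vehicle mice 63 and 64 alone. In naive mice 0 passed (1 with an unadjusted p under 0.05, and 0 in DESeq2). Of 6 tested Fc receptor and antibody transport genes 4 rose in DMM and 5 in naive mice, against 11.3% and 8.61% of all genes, led by Fcgr4, an activating IgG receptor of myeloid cells (log2 fold changes 2.64 and 3.02). Against DMM vehicle mice 32 to 34 alone 6 rose, and against mice 63 and 64 alone 0 did (3 with an unadjusted p under 0.05). Of all genes, 8450 and 1156 passed in these fits, in either direction. Among 9 survival and homing factors, 4 rose and 1 fell in DMM and 2 rose and 1 fell in naive mice, beside the same shares of all genes. In DMM mice 5 rose against vehicle mice 32 to 34 alone, 1 against mice 63 and 64 alone and 2 without the filter on low counts. The chemokine Cxcl13, which attracts B cells, was 10.1 to 59.6 CPM in DMM AP20187 and 0.179 to 0.524 CPM in DMM vehicle mice (log2 fold change 6.87, SE 0.68, adjusted p = 1.09e-05), with a log2 fold change of 6.31 in naive mice. Of 8 T and NK cell genes 0 passed in either comparison in edgeR's test (1 with an unadjusted p under 0.05 in each; 1 in DMM and 0 in naive mice in DESeq2).

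Within groups, Igkc, Jchain and Mzb1 varied together, and Igha most closely with Jchain. Over 19 libraries, after the group means were taken out of log2 CPM, Igkc and Jchain had a Pearson r of 0.94 (Spearman rho 0.87; r = 0.91 without DMM vehicle mice 63 and 64) and Igha and Jchain of 0.88 (rho 0.85; r = 0.81). Mzb1 had an r of 0.94 with Igkc (rho 0.86; r = 0.91) and of 0.87 with Jchain (rho 0.75; r = 0.81). Igha and Igkc were less close, with an r of 0.79 (rho 0.69; r = 0.66). Ighm and Ighd had an r of 0.78 (rho 0.73; r = 0.75). Ighg1 and Ighg2c had an r of -0.73, with a rho of -0.41 and an r of -0.53 without DMM vehicle mice 63 and 64. Among the genes outside the immunoglobulin loci most like Ighm were Alyref2 (r = 0.90), Otulinl (0.83), Ndufab1-ps (0.79) and Hmgb1-ps1 (0.79). Those most like Jchain were Bmt2 (0.90), Prdx6 (0.90), Tbrg1 (0.90), Ppp1ca (0.90) and Gins1 (0.90), with r between 0.84 and 0.89 without DMM vehicle mice 63 and 64. Igkc stood close to the granule gene Mpo (r = 0.92, rho 0.87; r = 0.90 without those mice), a pair chosen after its value was seen. Ighg2c had an r of 0.11 with Igkc, 0.15 with Jchain and 0.06 with Mzb1. The genes most like Ighg2c were Vamp4 (r = 0.83), Ttyh1 (0.81), Cnrip1 (0.81), Ube2e2 (0.80) and Synpr (0.79), named after their values were seen. Without DMM vehicle mice 63 and 64 these r were between 0.71 and 0.81. Which cells the Ighg2c counts came from was not tested. These correlations are descriptions over libraries that share their depth and their content of other cells.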

How the data were processed

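RNA of dorsal root ganglia was sequenced from poly(A)-selected, strand-preserving libraries, per the labels' protocols, in 19 libraries of 4 groups. The authors deposited counts per gene, and beside them FPKM (fragments per length of gene and size of library), for 36682 gene entries, per the file headers. All these entries, and the 10 genes described here, had equal counts in a second deposited matrix of 56691 entries. The submitters' processing notes name cutadapt, HISAT2, StringTie and GRCm39; the annotation and the use of strand in counting are not given in the sources used here.

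From the counts, edgeR 4.0.16 in R 4.3.3 was run with TMM scaling, a filter on low counts (filterByExpr, minimum count 10), 1 mean per group over all 19 libraries (15 residual degrees of freedom) and quasi-likelihood F tests, with Benjamini-Hochberg adjustment over 22778 genes and a threshold of 0.05. The standard error was the log2 fold change divided by the square root of F. The log2 CPM for correlations used a prior count of 2. Ratios of counts had 0.5 added to each count and were compared by two-sided exact permutation tests, adjusted over 8 tests. The level of 3 counts covers only counting error, as the labels name no molecular identifiers and PCR copies may be counted. The model was also run on simulated data, and the outcome is not given here.

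The 10 genes and the lists (other constant genes, mature and early B cells, plasma cells, class switching, Fc receptors, survival factors, granule precursors, red cells, T and NK cells, sensory neurons) were chosen with earlier results of these data known. Named were all 10 genes, up to 5 genes of each other list with the smallest adjusted p, and the 5 genes with the highest correlation to Ighm and to Jchain (mean of at least 1 CPM, group means taken out); 1 gene is not reported here. Alternatives were other scaling, no filter, DESeq2 1.42.0, limma 3.58.1 on log2(FPKM + 1), the compared groups alone, subsets of the DMM vehicle mice, a replicate block, other ratio settings and each library left out. Sequences came from GENCODE M21 transcripts on GRCm38, matched by symbol for all 9 genes whose windows are given.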

Additional observations from a re-analysis of the deposited data

Results flagged for a closer look

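In 8 of the 48 sets of values checked (each gene or log2 ratio in each group of mice), 1 mouse stood so far from the others of its group that Dixon's test at the 95% level set it apart. That level means about 1 in 20 by chance only for normally spread values. The CPM were used without a log, so 8 of 48 cannot be set against that rate. Ighg2b was 23.0 CPM in naive AP20187 mouse 3, against 0 to 1.31 CPM in the other 3 mice of that group. It was 4.58 CPM in naive vehicle mouse 5, against 0.295 to 1.29 CPM. Ighg2c was 21.3 CPM in DMM vehicle mouse 63, against 2.69 to 5.26 CPM. Ighg3 was 44.5 CPM in DMM AP20187 mouse 59, against 0.150 to 6.70 CPM, and 1.17 CPM in naive vehicle mouse 2, against 0 to 0.307 CPM. Igha was 20.2 CPM in naive vehicle mouse 3, against 7.28 to 8.78 CPM. Mzb1 was 1.18 CPM in naive AP20187 mouse 1, against 0 to 0.194 CPM. The log2 Jchain to Igkc ratio was -2.72 in naive vehicle mouse 4, against -1.63 to -1.30. Of these 8 values, 5 belong to IgG genes, which are 4 of the 10 genes.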

How the results depend on the processing

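Other settings moved the counts of genes more than the directions for the 10 genes. Over the fits that left out 1 mouse, 263 values of single genes kept their direction and side of the threshold, 5 came to pass, 7 no longer passed and 10 changed sign; over the other settings these numbers were 174, 21, 7 and 10. The causes were not tested. Without TMM scaling Ighm in naive mice had a log2 fold change of -0.063. Without the filter on low counts, 73 genes and 0 of the 10 differed between DMM and naive mice with AP20187 (Ighg1 5.80, adjusted p = 0.0650), and 13 genes passed the interaction. DESeq2 called 7035 genes and 6 of the 10 in DMM mice, 4367 genes and 3 of the 10 in naive mice, 1 gene between DMM and naive mice with vehicle, 1143 with AP20187, and 237 genes and 1 of the 10 in the interaction. With limma on log2(FPKM + 1) 6111 genes and 5 of the 10 passed in DMM mice, 4147 genes and 1 of the 10 in naive mice, 1220 genes between DMM and naive mice with AP20187 and 56 in the interaction; Mzb1 was 0.067 in DMM and Ighm -0.50 in naive mice. With only the compared groups in the fit 2 of the 10 passed in naive mice, and in DMM mice Ighd (-2.58, adjusted p = 0.0582) and Ighg1 (3.59, adjusted p = 0.0503) did not.

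With DMM vehicle mice 63 and 64 alone, 1156 genes and 1 of the 10 passed for AP20187 in DMM mice, 541 genes and 3 of the 10 between DMM and naive mice with vehicle, and 90 genes in the interaction; Ighm was -0.092 in DMM mice. The Ighd to Ighm ratio then differed by -3.46 for AP20187 in DMM mice (exact permutation p = 0.0476, the smallest possible with 2 mice against 5, adjusted p = 0.127) and by 0.064 between DMM and naive mice with vehicle, and the Jchain to Igkc ratio by -0.15 for AP20187 in DMM mice. With mice 32 to 34 alone, 8450 genes and 5 of the 10 passed for AP20187 in DMM mice and Mzb1 was 3.03 (adjusted p = 0.0700). Between DMM and naive mice with vehicle Igha was -0.60, Igkc -0.59 and Jchain -0.52, and the Ighd to Ighm ratio differed by -0.71 (exact permutation p = 0.0179, adjusted p = 0.0357).

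Leaving out 1 mouse at a time, the number of genes that passed for AP20187 in DMM mice ran from 3212 (without DMM AP20187 mouse 58) to 7677 (without DMM vehicle mouse 64), and of the 10 from 3 to 6. In naive mice it ran from 994 (without AP20187 mouse 3) to 3452 (without AP20187 mouse 5). Between DMM and naive mice with AP20187 it ran from 43 (without DMM mouse 59) to 269 (without DMM mouse 61), with 0 to 1 of the 10, and for the interaction from 12 (without DMM AP20187 mouse 60) to 57 (without naive AP20187 mouse 5). Mzb1 ran from -0.45 to 0.58 in DMM and from -2.00 to 0.25 in naive mice, Ighm from -0.73 to 0.34 and Ighg2b from -1.40 to 3.52 in naive mice, and Ighg1 from -0.016 to 0.95 between DMM and naive mice with vehicle. The Ighd to Ighm ratio differed by -2.59 to -1.73 for AP20187 in naive mice and by -3.31 to -2.63 in DMM mice, where all 10 cases passed (adjusted p from 0.0317 to 0.0423). The Jchain to Igkc ratio differed by -0.069 to 0.19 for AP20187 in DMM mice and by 0.68 to 1.05 between DMM and naive mice with AP20187.

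Naive mice 1, 3, 4 and 5 share numbers across AP20187 and vehicle. The correlation of same-numbered libraries around their group means was 0.02, 0.30, -0.08 and 0.18, so the numbers were not taken to pair the mice; AP20187 mice 3 and 5 correlated best with their own number, and mice 1 and 4 did not. With the replicate block 2352 genes and 1 of the 10 passed, against 2548 and 0; Ighd was -2.44 (adjusted p = 0.0362), Ighm -0.41 and Ighg2b -0.41. The paired Ighd to Ighm difference was -2.10 (exact sign permutation p = 0.125, the smallest 4 pairs allow, adjusted p = 0.279), and the paired Jchain to Igkc difference -0.45. With FPKM in place of counts, a setting chosen after seeing the data, the mean shares of Ighm, Igha and the summed IgG genes lay within 1 SD of those by counts, while that of Ighg2c was 8.71% against 6.06% in naive vehicle and 2.03% against 1.18% in DMM AP20187 mice. Ighg3 was at or under 3 counts in 3 of 5 DMM vehicle libraries, so depth limits the size of its fold change.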
